A study of Coccomyxa subellipsoidea C-169 with 6 samples.

Results

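Genes of urea use were followed in the unicellular green alga Coccomyxa subellipsoidea C-169, namely the urea transporters 53548 and 30678 and the urea carboxylase 19857. They were taken by their identifiers as 3 of the 9409 genes in the deposited table. They were selected on their much higher transcript level at 2% CO2, so their difference between the CO2 levels is described here and not tested.

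All cultures were of the same strain and were grown in Bold's Basal Medium, a mineral medium whose nitrogen source is nitrate, under continuous light at 25 °C in shaken flasks. The AG cultures received 0.04% CO2 and the CG cultures 2% CO2, and both were harvested on day 4. Each group had 3 cultures and each culture 1 digital gene expression (DGE) library of short reads from poly(A) RNA, and libraries are called AG 1, CG 1 and so on by their replicate number. Reads assigned to genes summed to 3825993 to 4969639 per AG library and 2674507 to 3740989 per CG library. Levels are given as counts, as TMM-normalized CPM, which are counts scaled to a common library size, and as the authors' RPKM, which also corrects for transcript length and is used wherever 2 genes are set side by side. The transcript lengths behind the RPKM were 2656 bases for 53548, 3404 for 30678 and 3789 for 19857. None of the 3 had a fractional count in any library, whereas 8.16% of all counts in the table were fractional.

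Green algae related to Chlamydomonas take up urea through active transporters that use the sodium gradient and are known as DUR3 in yeast and plants. Inside the cell, urea carboxylase, a biotin enzyme, joins bicarbonate to urea at the cost of ATP, and allophanate hydrolase then splits the product into ammonium and CO2. This pair of enzymes stands in for urease, which many plants and bacteria use instead. The study annotated both transporters as solute:sodium symporters that carry urea. The names could not be checked against a protein sequence here. An allophanate hydrolase was not found by name in the annotation used here, which covers only genes called by the authors and is shortened, so that second step is not analysed here.

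Transcripts of the transporter 53548 were all but undetected at 0.04% CO2 and abundant at 2% CO2. It had 0, 1 and 0 counts in AG 1, AG 2 and AG 3, where 3 counts would correspond to 0.604 to 0.784 CPM. In CG 1, CG 2 and CG 3 it had 1164, 1822 and 2451 counts, or 427, 645 and 635 CPM. At equal depth, taken from library totals without TMM scaling, the 5437 counts over CG and the single count over AG gave a ratio of 7591. Its exact binomial 95% interval, from 1362 to 299900, covers counting error only. Without AG 2 no AG count was left. Against an assumed floor of 3 counts over the group, the level in CG was then 1772-fold higher. The exact 95% interval began at 1440 without AG 2, at 939 without AG 1 and at 832 without AG 3. The CG libraries thus lay far above the AG libraries, but the size of the fold rested on a single read. As RNA was taken from whole cultures, fewer cells that hold a transcript and less of it per cell cannot be told apart. Of the 364 genes with at most 3 counts over the AG libraries, 53548 had the highest mean level in CG.

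The transporter 30678 was the most abundant of the 3 genes in every library. It had 146, 193 and 205 counts in AG 1, AG 2 and AG 3 and 6393, 7593 and 9438 in CG 1, CG 2 and CG 3. In CPM this was 38.3, 51.0 and 42.9 in AG against 2346, 2687 and 2446 in CG. The mean went from 44.1 ± 6.42 to 2493 ± 175 CPM (SD, n = 3), 56.6-fold higher in CG. Within CG the 3 libraries were close together, and none stood apart. By RPKM it ranked between 6834 and 7283 of the 9409 genes in AG, and between 67 and 107 in CG. It took 0.239 to 0.279% of all counts in a CG library.

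The urea carboxylase 19857 was expressed at a low level at 0.04% CO2 and was 35.1-fold higher at 2% CO2. Its counts were 78, 84 and 146 in AG 1, AG 2 and AG 3 and 1594, 2863 and 3755 in CG 1, CG 2 and CG 3. The corresponding levels were 20.5, 22.2 and 30.5 CPM in AG and 585, 1013 and 973 CPM in CG. The AG level was 24.4 ± 5.39 CPM and the CG level 857 ± 237 CPM (SD, n = 3). CG 1 lay well below the other CG libraries.

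**Figure D1:**
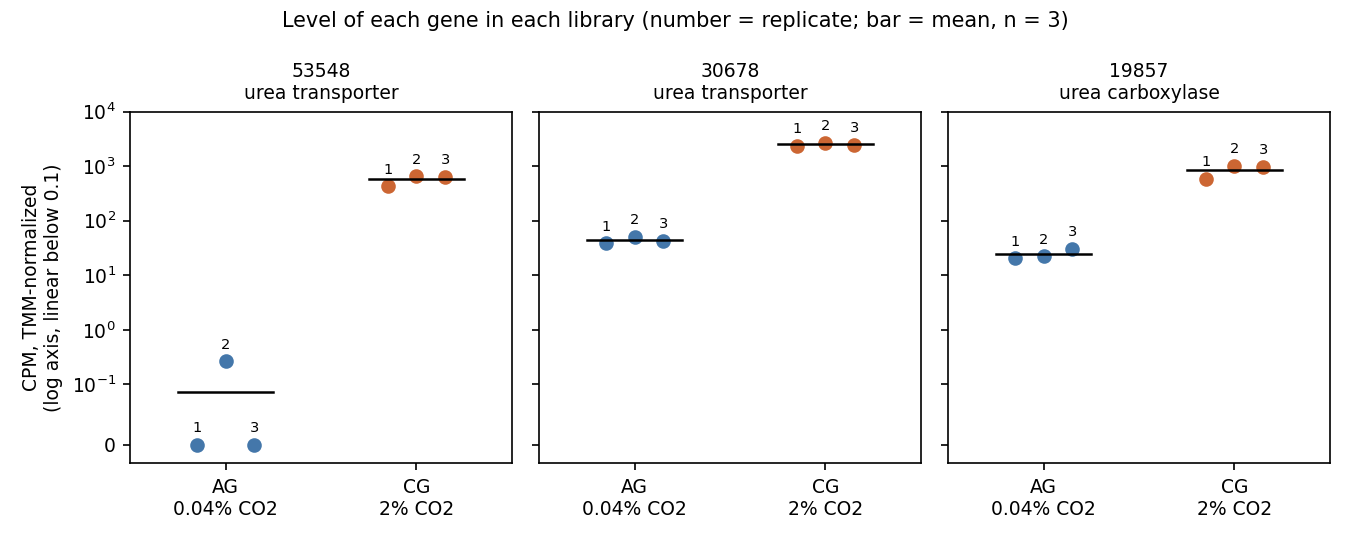
TMM-normalized CPM of 53548, 30678 and 19857 in each library, on an axis that is logarithmic above 0.1 and linear below it. Points are single libraries, numbered by replicate, and bars are means of 3 libraries. For each gene, selected on this contrast, every CG library lies above every AG library, and 53548 is at 0 in AG 1 and AG 3.

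The fitted log2 fold changes, CG relative to AG, were 12.27 for 53548, 5.82 for 30678 and 5.13 for 19857. Among the 8637 genes that passed the filter on low counts these were the 3rd, 23rd and 37th highest, beside a median over all of them of -0.0055. The genes had been selected on this contrast, so their high ranks are a description only. The fitted value of 53548 depends on how a count of 0 is treated and is no bound, so the count ratio is the better description. The same count ratio, without TMM scaling, was 60.1 for 30678 and 37.2 for 19857.

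CG 1 held less of 53548 and of 19857 than CG 2 and CG 3 did, but nearly as much of 30678. Relative to the mean of CG 2 and CG 3, the CPM in CG 1 was 0.667 for 53548, 0.589 for 19857 and 0.914 for 30678. CG 1 stood apart from the other CG libraries more widely. The study's criteria, an adjusted p under 0.001 and a change of more than 1 on the log2 scale, were met in the edgeR fit by 687 genes with the higher level in CG. For these genes the same ratio had a median of 0.854, with quartiles of 0.712 and 1.03. The values of 53548 and 19857 were below the lower quartile, and that of 30678 lay between the quartiles. The part of CG 1's difference in these values was not tested.

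Per length, the carboxylase and the transporter 53548 were at nearly the same level in CG, and 30678 was severalfold above both. The mean was 754 ± 59.4 RPKM for 30678, 233 ± 66.0 for 19857 and 221 ± 49.4 for 53548 (SD, n = 3). The last 2 did not differ beyond their spread. In AG the order was 30678 at 12.6 ± 2.04 RPKM, then 19857 at 6.25 ± 1.34, with 53548 listed at 0, 0.0984 and 0.

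The ratio of 19857 to 53548 stayed close to 1 in every CG library although both varied in level between them. It was 0.960, 1.10 and 1.07 in CG 1, CG 2 and CG 3 on the RPKM scale, with a geometric mean of 1.04. The exact counting interval in CG 1, from 0.889 to 1.04, included 1. Those in CG 2, from 1.04 to 1.17, and CG 3, from 1.02 to 1.13, lay just above it.

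The ratio of 30678 to 53548 was higher in CG 1 than in the other CG libraries. It was 4.29 in CG 1 against 3.25 in CG 2 and 3.0 in CG 3. Its counting interval in CG 1, from 4.03 to 4.57, did not reach those of CG 2, from 3.09 to 3.42, or CG 3, from 2.87 to 3.14. The ratio of 30678 to 19857 showed the same order, at 4.46, 2.95 and 2.80. In AG the latter ratio was lower, at 2.08, 2.56 and 1.56, so that the transporter exceeded the carboxylase by more in each CG library than in any AG library. The lowest CG value and the highest AG value were nonetheless close, and the counting interval in AG 2 reached from 1.97 to 3.34, which covers CG 2 and CG 3. The geometric means were 3.33 in CG and 2.03 in AG, with SDs on the log2 scale of 0.37 and 0.36.

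**Figure D2:**
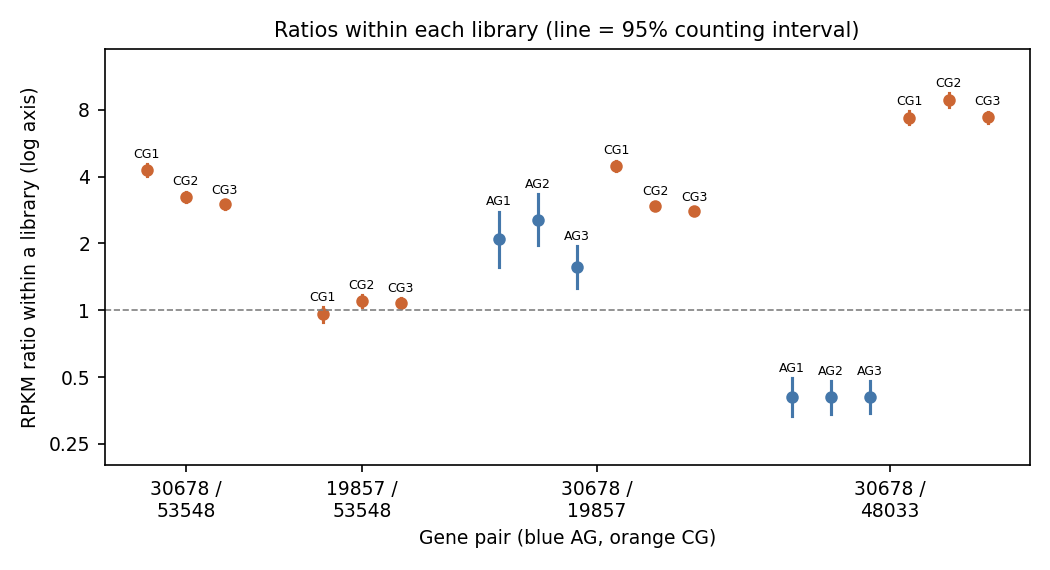
RPKM ratio of 2 genes within each library, on a log axis, with exact 95% counting intervals as lines (AG blue, CG orange). The ratio of 19857 to 53548 lies near 1 in the 3 CG libraries, and that of 30678 to 48033 goes from about 0.41 in AG to between 7.38 and 8.86 in CG. Ratios to 53548 in AG are not shown because it had a single count there.

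The study annotated 4 genes as urea transporters in the part of its term list used here, and the other 2 behaved differently from the pair above. Gene 48033 had 104, 139 and 117 CPM in AG and 351, 335 and 364 CPM in CG. It rose 2.92-fold in CPM, or by 1.55 on the log2 scale of the edgeR fit (SE 0.15), with a Benjamini-Hochberg adjusted p of 0.000210 in the quasi-likelihood test of edgeR over all genes. The p-values weigh the difference between the groups against the spread between these cultures, estimated with information from all genes. Gene 49153 was at 12.9, 16.9 and 18.4 CPM in AG and at 4.04, 6.72 and 4.92 CPM in CG. It fell in the same edgeR fit, with a log2 change of -1.62 (SE 0.25, adjusted p = 0.00153). For both the groups did not overlap, but the share of all genes without overlap was not determined. Of all genes tested, 27.3% were higher and 25.0% lower in CG at an adjusted p under 0.05, so 1 call in each direction among these 2 genes says nothing particular of them. Only genes already called by the authors in these libraries entered the term list, which makes the calls of 48033 and 49153 no independent evidence, and further urea transporters could be missing from it.

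The make-up of urea transporter transcripts was nearly the same in all AG libraries and changed over between the groups. In AG 1, AG 2 and AG 3, 48033 held 61.6, 61.8 and 59.5% of the summed RPKM of the 4 genes, 30678 held 25.1, 25.0 and 24.2%, and 49153 the rest but for a trace of 53548. In CG 1, CG 2 and CG 3, 30678 held 72.9, 70.2 and 68.0% and 53548 held 17.0, 21.6 and 22.6%. The share of 48033 in CG was 7.93 to 9.88%, and that of 49153 was 0.197 to 0.276%. The leading transporter was therefore 48033 in each AG library and 30678 in each CG library. The sum itself was 50.8 ± 8.12 RPKM in AG and 1073 ± 103 RPKM in CG (SD, n = 3), 21.1-fold higher. These sums contain the 2 genes that were selected on their increase, so they are a description.

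**Figure D3:**
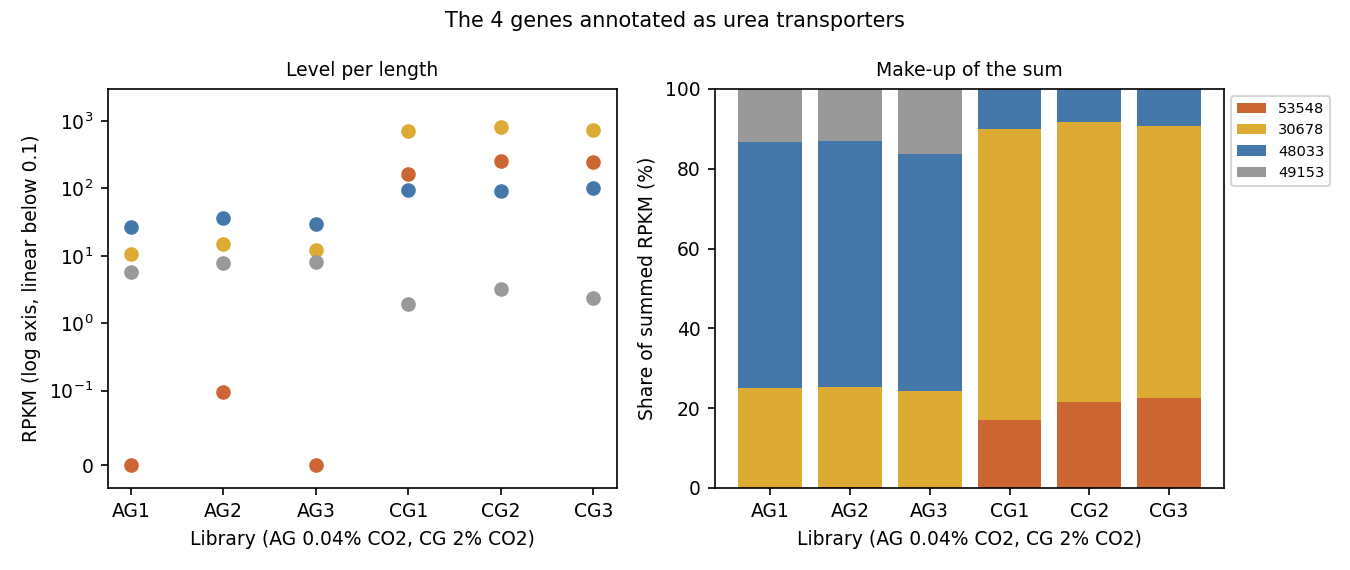
The 4 genes annotated as urea transporters in each library, as RPKM (left, log axis that is linear below 0.1) and as shares of their summed RPKM (right, in %). Gene 48033 makes up 59.5 to 61.8% of the sum in AG, and 30678 makes up 68.0 to 72.9% in CG, where 53548 adds 17.0 to 22.6%.

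The leading transporters of the 2 groups, 30678 and 48033, had nearly the same ratio in the 3 AG libraries. The ratio of 30678 to 48033 was 0.408, 0.405 and 0.406 in AG 1, AG 2 and AG 3, while the RPKM of 30678 itself ranged from 10.8 to 14.8. The counting interval of each of these ratios was far wider than their spread, for example 0.335 to 0.494 in AG 1, so 3 values this close are not a measure of precision. In CG the ratio was 7.38, 8.86 and 7.41.

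Most genes of nitrogen uptake and assimilation named by the study rose at 2% CO2. In the list were 12 genes, of which 10 rose and 2 fell in the edgeR test, and 11 met the study's criteria in either direction. Over all genes tested, 52.2% were called and 13.6% met the criteria. The median log2 fold change of the list was 3.25. The study had chosen the list on these same libraries, so its direction is not independent evidence.

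For nitrate, the nitrogen source of the medium, all 3 named genes rose. The nitrate transporter 28993 went from 176, 182 and 191 CPM in AG to 4914, 4169 and 4582 CPM in CG, which was 4.64 on the log2 scale (SE 0.19, edgeR adjusted p = 9.70e-06). Nitrate reductase 29226, which makes nitrite, rose by a log2 fold change of 3.05, and nitrite reductase 29833, which makes ammonium, by 5.22. The rise of nitrite reductase, from 53.1 to 60.2 CPM in AG to 2017 to 2257 CPM in CG, was similar in size to the difference of the urea carboxylase.

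Ammonium transporters moved in both directions. Genes 47532, 52218, 65570 and 65572 rose by log2 fold changes of 3.22, 9.60, 5.98 and 6.43. Of these, 52218 came closest to 53548, with 3.67, 2.38 and 1.67 CPM in AG and 726, 2552 and 2694 CPM in CG, CG 1 again being the lowest. Genes 65570 and 65572 had fractional counts, so reads could have been divided between similar sequences. The same holds for glutamate synthase 53183, glutamate dehydrogenase 63513 and pyruvate carboxylase 26440, which are described below. Gene 65518 was slightly lower in CG, at 24.9, 26.9 and 29.0 CPM against 32.8, 35.9 and 38.3 in AG, a log2 change of -0.40 (SE 0.12, edgeR adjusted p = 0.0302). Its call was lost in 8 of 15 alternatives, with adjusted p = 0.0714 without AG 2, 0.108 without AG 3 and 0.0882 without CG 2 in edgeR, over a range of 0.0301 to 0.108.

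Of the 4 listed enzymes that carry the nitrogen onward, 3 rose and 1 fell. Glutamine synthetases and further glutamate dehydrogenase genes had no identifier in the sources used here and are not analysed here. Glutamate synthase 53183 and the carbamoyl-phosphate synthetase II genes 25106 and 54860 rose by log2 fold changes of 2.47, 3.29 and 3.07. Carbamoyl-phosphate synthetase, like urea carboxylase, uses bicarbonate and ATP. The glutamate dehydrogenase 63513, which can release ammonium from glutamate, fell from 258, 246 and 269 CPM in AG to 105, 95.5 and 99.0 CPM in CG, a log2 change of -1.37 (SE 0.11, edgeR adjusted p = 0.000106). Purine bases are a further source of urea in many organisms. The only gene of that kind named in the sources, the xanthine/uracil permease 47512, rose by a log2 fold change of 2.46.

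Genes of other enzymes that use biotin to carboxylate, as the study names them, were at lower fold changes than the urea carboxylase. Which subunit of acetyl-CoA carboxylase its genes encode is not given in the sources used here. Pyruvate carboxylase 26440, which makes oxaloacetate, rose from 312, 320 and 316 CPM to 641, 805 and 723 CPM, by 1.19 on the log2 scale (SE 0.14, edgeR adjusted p = 0.000568). Acetyl-CoA carboxylase gene 65159, of the enzyme that makes malonyl-CoA for fatty acid synthesis, was at 104, 115 and 113 CPM in AG and at 141, 457 and 470 CPM in CG. It rose by 1.69 on the log2 scale (SE 0.42, edgeR adjusted p = 0.0134), and the call was lost without AG 1, AG 2 or AG 3, at adjusted p of 0.0564, 0.0528 and 0.0527 in edgeR, the highest over the alternatives. The acetyl-CoA carboxylase gene 27575 did not pass, with 474, 420 and 437 CPM in AG and 207, 668 and 723 CPM in CG, 0.26 on the log2 scale (SE 0.42, edgeR adjusted p = 0.627). It passed without CG 1, at a log2 fold change of 0.65 (adjusted p = 1.83e-05 from edgeR, against up to 0.971 in other alternatives). All 3 carboxylases were, like 19857, lowest in CG 1 among the CG libraries. A lower level in CG 1 was not particular to carboxylases. The median CPM in CG 1, relative to the mean of CG 2 and CG 3, was 0.854 over the 687 risen genes described above. The test of a difference between the 3 carboxylases and 19857 was not made, since 19857 was selected on the same contrast.

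**Figure D4:**
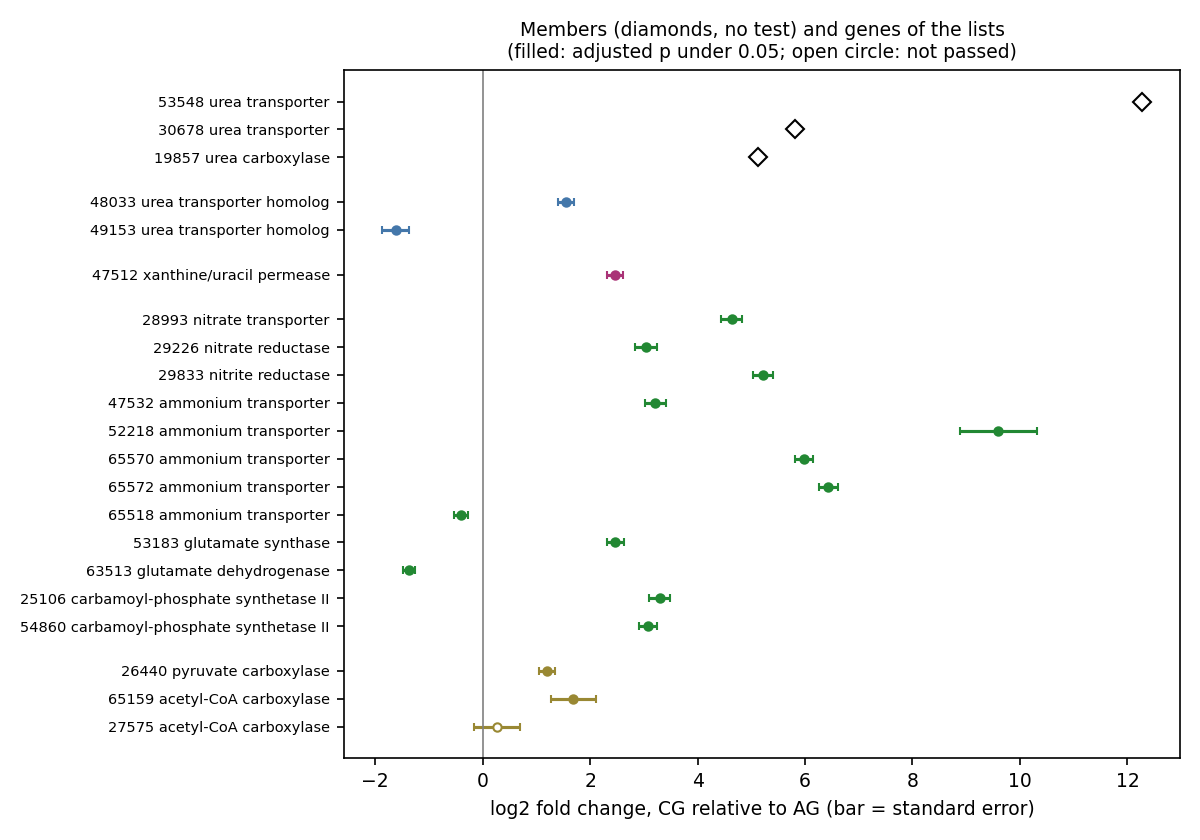
Log2 fold changes, CG relative to AG, of the 3 genes selected on this contrast (diamonds, without a test) and of the genes of the lists (circles with standard errors, filled where the adjusted p was under 0.05). The 3 selected genes lie at 12.27, 5.82 and 5.13, the nitrogen genes that rose between 2.46 and 9.60, and the carboxylases between 0.26 and 1.69.

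The 3 genes lie on 3 different scaffolds of the reference assembly, and the 4 urea transporters on 4, so no 2 of them are neighbours. The 3 annotated genes on either side of each were followed as well. None of these 18 genes overlaps its member in the annotation. This bears on the counting, because reads of both strands were counted and those of overlapping genes could not be told apart. Of the 17 neighbours that could be tested, 5 rose, 8 fell and 4 did not pass, against 27.3% of all genes higher and 25.0% lower. The files give no names for them.

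Of the 3 genes that follow 53548, the first 2 rose and the last, 15875, did not pass. Gene 29196, adjacent to 53548, was at 2.10, 2.38 and 1.26 CPM in AG and 52.1, 70.1 and 76.2 CPM in CG, and it rose by 5.12 on the log2 scale (SE 0.26, edgeR adjusted p = 2.51e-05). The next gene, 63577, was at 1.31, 0.793 and 1.26 CPM in AG and 45.9, 44.2 and 40.4 CPM in CG, and it rose by 5.22 on that scale (SE 0.20, edgeR adjusted p = 6.48e-06). A rise with a log2 fold change over 5 was called for 0.463% of all genes tested, or 40 genes, the selected genes among them. This threshold was set after the values had been seen. Both calls held in all 15 alternatives, but the log2 fold change there went down to 4.42 for 29196 and 4.58 for 63577. The AG level rested on 23 counts for 29196 and 14 for 63577. Per length both genes were well below 53548 in CG, at 49.2 ± 9.64 and 53.5 ± 3.22 RPKM (SD, n = 3). They differed from each other in CG 1, whose CPM was 0.713 of the mean of CG 2 and CG 3 for 29196 and 1.08 for 63577. On the other side of 53548, gene 47549 fell by a log2 fold change of -1.36, a call lost without AG 1, AG 2 or AG 3 at adjusted p of 0.0550, 0.0568 and 0.0599 in edgeR, the highest over the alternatives. Gene 63572 on that side and 15875 beyond 63577 did not pass, at log2 fold changes of 0.10 and 0.43, and 42133 had too few counts to be tested.

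Around 30678 and 19857, which had been selected on their rise, no neighbour came near the member's difference. Of the 6 neighbours of 30678, 3 rose, namely 43964, 30676 and 57694, with log2 fold changes of 1.18, 2.60 and 1.72. The other 3, 48551, 34004 and 67413, fell by -1.55, -2.31 and -2.44 on the log2 scale. For 48551 the call was at the edge, with an adjusted p of 0.0488, and without CG 2 it was 0.142, the highest over the alternatives. None of the 6 neighbours of 19857 rose. The genes 67978, 59608, 59609 and 19957 fell, with log2 fold changes of -1.07, -2.27, -1.98 and -1.12, and 59613 and 19850 did not pass, at 0.34 and 0.12. The calls of 48551 and 67978 were lost in 7 and 5 of 15 alternatives. In edgeR, leaving out AG 1, AG 2 and AG 3 gave 48551 adjusted p-values of 0.113, 0.109 and 0.112, and leaving out CG 3 gave 0.0640. For 67978 they were 0.0679, 0.0750 and 0.0765 on leaving out AG 1, AG 2 and AG 3, and 0.0844 and 0.0695 on leaving out CG 2 and CG 3.

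**Figure D5:**
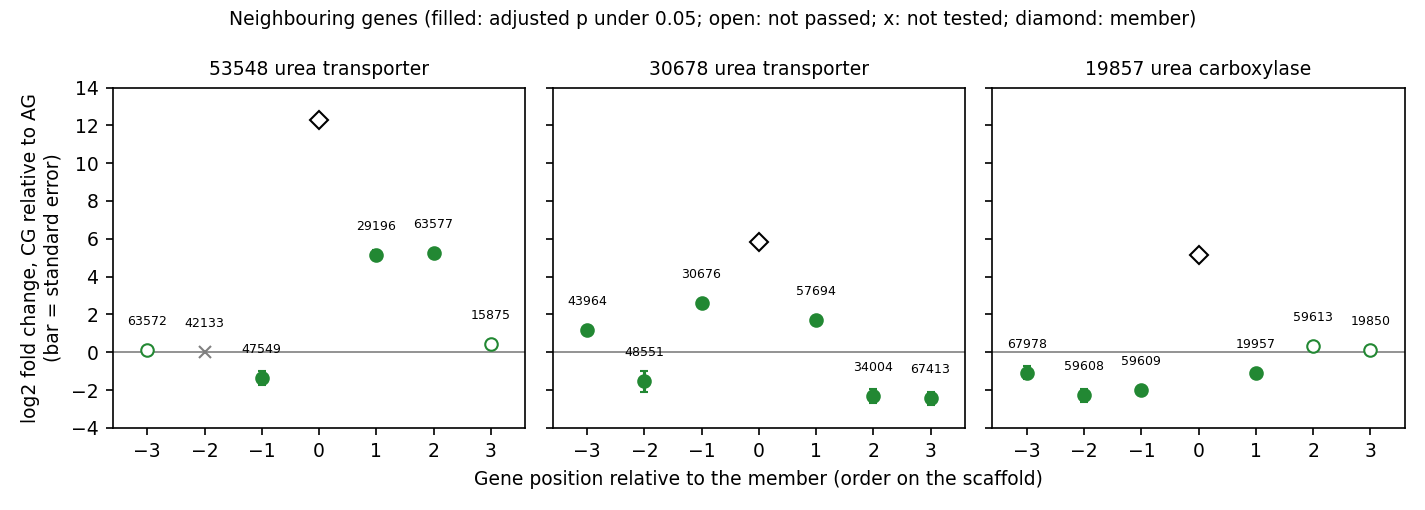
Log2 fold changes, CG relative to AG, of the 3 annotated genes before and after 53548, 30678 and 19857, by gene order on the scaffold (bars are standard errors, filled circles passed at an adjusted p under 0.05, the cross was not tested, the diamond is the selected gene). The first 2 genes after 53548 lie above 5, the next one, 15875, lies at 0.43, and none of the other neighbours exceeds 2.60.

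Likeness of pattern was measured as the root-mean-square difference of log2 CPM over the 6 libraries, each gene being centred on its own mean. By this measure 30678 and 19857 were 0.468 apart, while 53548 was 2.00 from 30678 and 2.38 from 19857. With a single AG count, the AG values of 53548, and so its distances, rest on the prior count of 2 added before the logarithm. The genes nearest to 53548 were the sodium/sulfate symporter 54015 at 0.470, gene 44499 at 0.567 and the ammonium transporter 52218 at 0.635. All of them were nearly undetected in AG, with 7, 9 and 31 counts over the 3 AG libraries. In CG 1 they were not alike, since 44499 was highest there, at 1184 CPM against 729 and 704, while 54015 was at 703 CPM against 880 and 867. The genes nearest to 30678 were the ammonium transporter 65570 at 0.183, gene 41978 at 0.231 and gene 28301 at 0.254. Of these, 41978 had no count in any AG library, where 3 counts would be 0.604 to 0.784 CPM, and 249 counts in CG, so its place rests on the same prior count. The genes nearest to 19857 were 34223, 48592 and 61672, at 0.138, 0.218 and 0.234. Like 19857 each was lowest in CG 1 within CG, but they were chosen for likeness over these same libraries. The files name none of the last 3.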

How the data were processed

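One DGE library was sequenced from each of 6 cultures. The authors mapped cleaned reads with Bowtie (version not given in the sources used here) to C-169 transcripts from Phytozome, allowing 1 mismatch and counting both strands. The deposited table holds, per gene and library, expected counts from this mapping by the authors, partly fractional and not scaled as far as is described, and the authors' RPKM values, which divide them by transcript length and library size. Its group means, fold changes and FDR values were not used.

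Counts were rounded and fitted in R 4.3.3 with edgeR 4.0.16 (TMM, filterByExpr, robust quasi-likelihood, Benjamini-Hochberg over the 8637 genes kept). The study does not name its test. Its criteria were an adjusted p under 0.001 and a log2 fold change beyond 1. CPM are TMM-normalized. Standard errors were derived from the F statistic. Alternatives were DESeq2 1.42.0, limma 3.58.1 on log2(RPKM + 1) and log2(RPKM + 0.1), other scalings and filters, unrounded counts, a replicate block and each library left out. Ratios have exact binomial 95% intervals, which cover counting error only.

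Members and lists were chosen with earlier results of these data known. Genes named are the members, the other annotated urea transporters, all genes of the lists, 3 neighbours on either side of each member and the 3 genes nearest in pattern. Lists by product name and by protein similarity had been planned, but product names and proteins were not used here, so lists hold only genes that the study's text or annotation names, and no sequence is shown. Neighbours came from RefSeq annotation GCF_000258705.1, to which 9372 of 9409 genes were matched. Its coordinates are not given because the authors' build is not stated. Tables and intervals were made in Python 3.11.15 with scipy 1.17.1, numpy 2.4.6 and pandas 2.3.3, and plots with matplotlib 3.10.9.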

Additional observations from a re-analysis of the deposited data

How the results depend on the processing

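The call of every nitrogen list gene other than 65518, and of the transporters 48033 and 49153, held in all 15 alternatives. Of 686 recomputed values, 635 kept their call or, where there was no test, stayed near the value given, 21 untested values or counts moved, 26 calls were lost, 2 were gained and 2 values changed sign. The number of genes that met the study's criteria was 1171, against 2042 in DESeq2 and 240 to 2557 with 1 library left out, the highest without CG 1. Replicate numbers are not said to pair cultures, and same-numbered deviations correlated at only -0.0343, 0.0377 and -0.0509. With the replicate block 329 genes met the criteria and 4071 instead of 4512 passed at an adjusted p under 0.05. Of the list and neighbour genes, the block changed only the call of 65518. The log2 fold change of 53548 was 12.67 in DESeq2, 7.72 and 10.75 in limma with pseudocounts of 1 and 0.1, and 11.72 to 14 with 1 library left out. That of 30678 and 19857 stayed within the spread between libraries. Of the 3 other carboxylase genes 2 were called, and 1 to 3 with 1 library left out. As 52.2% of all genes tested were called, this count says nothing particular of carboxylases. Without length correction the ratio of 30678 to 53548 in CG was 4.45, that of 19857 to 53548 was 1.49, and that of 30678 to 48033 in AG was 0.368. On log2(RPKM + 0.1), 1 of the 3 genes nearest to 53548 was the same. With 1 library left out, the log2 change of 27575 ranged from -0.024 to 0.65 and that of 63572 from -0.082 to 0.20, both negative only without CG 3, where neither passed. The cause of these shifts was not tested. Depth limits 53548 in AG, where a single count was found.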
